A study of Danio rerio with 10 samples.

Results

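Oxidative phosphorylation genes were taken as the rows of the deposited expression tables whose KEGG pathway terms include oxidative phosphorylation. There were 115 such genes among the 25029 listed in either table, and all 115 were listed in both. By symbol prefix, 36 belonged to complex I, 5 to complex II, 9 to complex III, 21 to complex IV and 16 to the ATP synthase, 87 in all. A further 25 encode the V-type ATPase, which KEGG places in the same pathway, and 3 others are the phosphatases ppa1b, ppa2 and lhpp. The complex IV class includes the assembly factors cox10, cox11, cox15 and cox17, because the prefix put them there. None of the 115 lies on the mitochondrial chromosome, whose 29 listed genes carried no such term in the ventricle table. The fin table listed no gene of this chromosome, so the subunits encoded there could not be compared in fins.

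Transcriptomes came from adult zebrafish homozygous for a mutation in il11ra (il11ra-/- in the paper) and from wild-type siblings. il11ra encodes the receptor subunit that binds Il-11. The mutant allele bns251 was made with CRISPR-Cas9. Cardiac ventricles were collected whole at 96 hours post cardiac cryoinjury (hpci), with 2 libraries per genotype and 2 animals pooled in each library. Caudal fin tissue was collected at 24 hours post amputation (hpa), with 3 libraries per genotype and 1 animal in each. In both tissues every animal was injured, so the comparison was between genotypes after injury, and as whole tissue was sequenced, fewer cells of a type and less RNA per cell cannot be told apart.

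In the inner mitochondrial membrane, complexes I and II pass electrons from NADH and succinate to ubiquinone, complex III passes them to cytochrome c, and complex IV passes them to oxygen. Complexes I, III and IV pump protons, and the ATP synthase uses the resulting gradient to make ATP. Several complex IV subunits exist in isoforms that differ between tissues, such as the striated muscle forms of subunits 6a and 8 in mammals. The V-type ATPase runs the other way: it spends ATP to pump protons into lysosomes and endosomes, and across the plasma membrane of osteoclasts and proton-secreting ionocytes.

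Expression is given in normalised counts, the reads on a gene after the authors scaled each library and rounded the result. These summed to between 3768621 and 3986121 in the fins, and in the ventricles to between 10968602 and 13273996. il11ra itself was at 65, 80 and 57 in wild-type fins and 3, 6 and 7 in mutant fins, and at 107 and 189 in wild-type ventricles and 38 and 23 in mutant ventricles, so every library followed its label. Summed cardiomyocyte markers reached 480790 to 908700 in the ventricles, and summed epidermal markers reached 7403 to 10098 in the fins. The 87 genes of complexes I to V took 2.25% to 2.83% of the ventricle libraries and 0.516% to 0.590% of the fin libraries. The most abundant gene took 2.97% to 4.55% of each ventricle library but only 0.0821% to 0.172% of each fin library, so the fin table spans a narrower range of levels, and the sources used here do not say whether duplicate reads were removed.

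In amputated fins, the nuclear-encoded transcripts of the respiratory chain differed little between genotypes, and the largest differences were in a few isoforms present at low levels. Smaller differences were also called in the more abundant sdhb, sdhdb and uqcrfs1. Of the 111 members with a mean of at least 10 normalised counts, 11 passed an adjusted p of 0.05 (limma, Benjamini-Hochberg adjustment over all genes tested), 7 of them higher and 4 lower in mutants. That is 9.91% of the members, against 36.6% of the 16741 genes tested. At an unadjusted p under 0.05 the shares were 13.5% of members and 47.9% of all genes, and the genotypes did not overlap in 21.6% and 52.8%. For complexes I to V, 7 of 84 passed the adjusted threshold (8.33%). The median log2 fold change, mutant over wild type, was -0.01 over complexes I to V and -0.01 over all genes tested. For 71 of these 84 genes (84.5%) the 95% interval of the difference lay within 1.5-fold in either direction, against 33.6% of all genes tested. The median standard error was 0.11 for complexes I to V and 0.16 for all genes tested. Among genes listed in fins, the median level was 185 normalised counts for complexes I to V and 79 over all genes. Whether the narrower range of levels in fins bears on these fold changes and intervals was not tested.

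**Figure D1:**
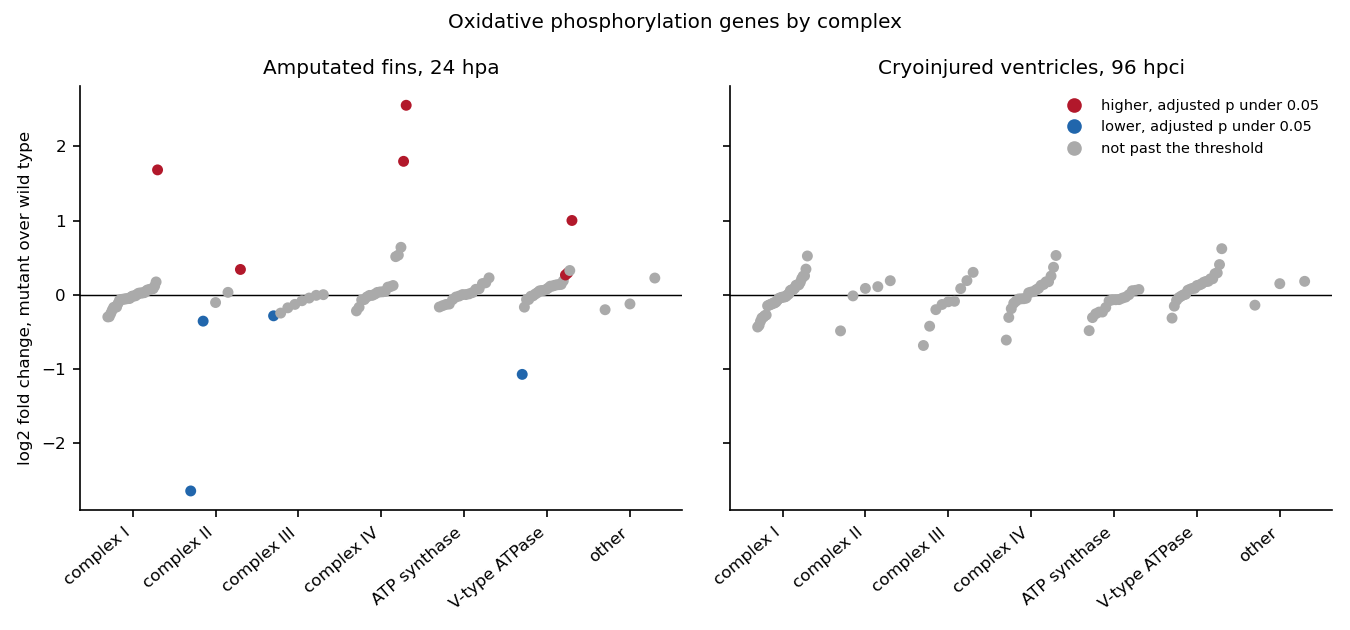
Log2 fold change (y axis, mutant over wild type) of each member tested, by complex (x axis), in fins on the left and ventricles on the right. Red and blue points passed an adjusted p of 0.05. In fins 11 of 111 members did (9.91%, against 36.6% of all genes tested). In ventricles 0 members did, as did 0 of all 17411 genes tested. Most fin points lie close to 0, and the points far from it are cox6a2, cox4i2 and ndufa4 above, and sdhda below.

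The largest rises were in complex IV, the cytochrome c oxidase. cox6a2 (chromosome 3, 31039923 to 31042102, GRCz11) encodes the isoform of subunit 6a that in mammals is found in heart and skeletal muscle. It was at 2, 6 and 7 normalised counts in wild-type fins and at 54, 19 and 30 in mutant fins. The groups did not overlap, and the log2 fold change was 2.56 ± 0.53 (SE, n = 3 per genotype, adjusted p = 0.00874), or 5.88-fold on the log2(value + 1) scale.

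cox4i2 (chromosome 23, 18944388 to 18951148) encodes an isoform of subunit 4 that in mammals responds to low oxygen. It was at 35, 17 and 46 in wild-type fins and at 122, 110 and 93 in mutant fins, with a log2 fold change of 1.80 ± 0.34 (adjusted p = 0.00616). Even the lowest mutant fin held more than the highest wild-type fin. cox4i2 and cox6a2 stayed past the threshold whichever of the 6 libraries was left out, with log2 fold changes of 1.4 to 2.09 and of 2.12 to 2.90.

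The widely expressed isoforms showed no such difference. cox4i1 was at 340, 276 and 308 in wild-type fins and at 340, 302 and 304 in mutant fins. cox6a1 was at 342, 276 and 276 in wild-type fins and at 324, 283 and 303 in mutants. In both, the genotypes overlapped.

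Of the other isoforms, cox6b1 had 150, 129 and 90 in wild-type fins and 163, 173 and 189 in mutants. These groups did not overlap, but the adjusted p was 0.0576. The muscle-type isoform gene cox8b was at 16, 7 and 16 in wild-type fins and at 15, 19 and 20 in mutants, and cox5b2 at 15, 8 and 6 and at 16, 13 and 15, with overlap in both. cox4i1l did not reach the minimum mean, with 2, 0 and 0 against 0, 7 and 1. On the full list of tissue-type isoforms, which also holds ndufa4 and ATP synthase genes, 21 were tested. Of these, 3 were higher in mutants (14.3%, against 19.6% over all genes tested) and 0 lower. Their log2 fold changes ran from -0.85 to 2.56. cox7a1, cox7a2a, cox7a2l, atp5if1a and atp5if1b, also on the list, did not pass the threshold.

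A pattern similar to that of cox6a2 and cox4i2 was seen in ndufa4 (chromosome 12, 9880493 to 9884326). Its prefix places it in complex I, although the mammalian protein is now counted as a complex IV subunit. It was at 6, 7 and 9 in wild-type fins and at 12, 41 and 33 in mutant fins, with a log2 fold change of 1.68 ± 0.49 (adjusted p = 0.0293). Like cox6a2, ndufa4 entered the test only through its mutant values. Mutant fin 1 stood close to the wild-type fins, and ndufa4 stayed past the threshold only when that library was left out, with adjusted p values of up to 0.0913 in the other fits. The paralog ndufa4l was at 250, 234 and 268 in wild-type fins and at 246, 237 and 240 in mutants.

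The share of one paralog in the summed counts of its family compares libraries without their scaling. cox4i2 made up 9.36% ± 3.60 (SD, n = 3) of the cox4i1, cox4i1l and cox4i2 counts in wild-type fins and 25.3% ± 1.71 in mutant fins. The share of cox6a2 in the cox6a1 and cox6a2 counts was 1.73% ± 1.01 and 9.86% ± 4.06, and that of ndufa4 in the ndufa4 and ndufa4l counts was 2.83% ± 0.46 and 10.5% ± 5.23. In each family the lowest mutant share exceeded the highest wild-type share. With 3 against 3 this gives an exact two-sided permutation p of 0.1, the smallest possible. The 3 genes were picked for passing the threshold, and cox4i1, cox6a1 and ndufa4l differed little between genotypes. This lack of overlap is therefore no further support for the calls. atp5mc3a did not pass the threshold, but its share in the atp5mc3a, atp5mc3b and atp5mc1 counts did not overlap either (same p). It was lower in mutant fins. The shares of cox4i1l, cox5ab and atp6v1c1a overlapped. In ventricles cox6a2 and cox4i2 made up other proportions than in fins. The share of cox6a2 was 92.6% ± 1.76 in wild type and 89.5% ± 5.40 in mutants (n = 2 each). That of cox4i2 was 1.19% ± 0.20 and 0.957% ± 0.031. These shares are of counts and not per length, and short reads from near-identical paralogs may be split or dropped by the counting.

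**Figure D2:**
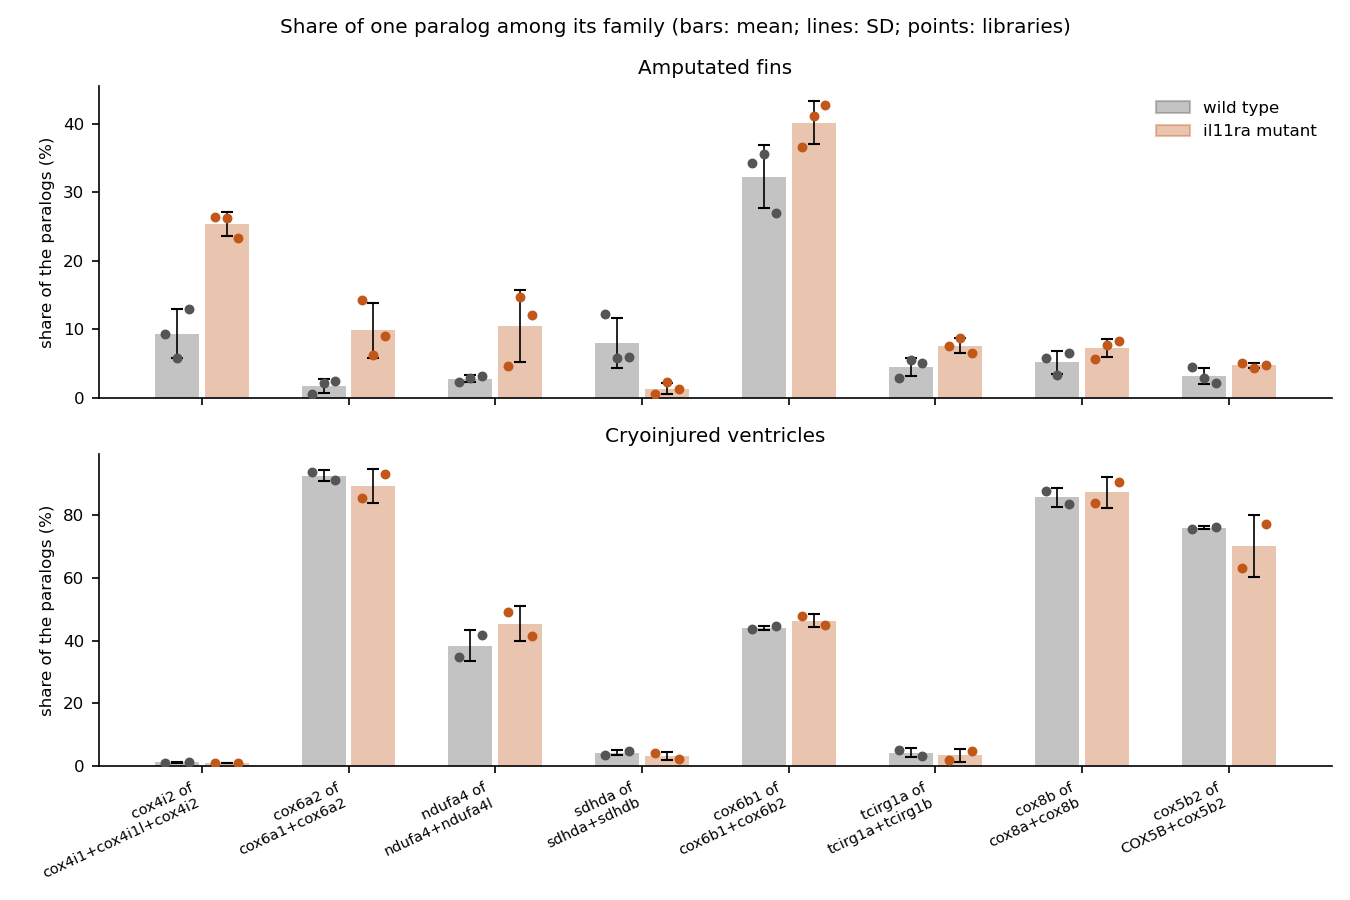
Share of a named paralog in the summed normalised counts of its family (y axis, percent) for 8 families (x axis), in fins above and ventricles below. Bars are means, lines are SD and points are libraries. In fins the shares of cox4i2, cox6a2, ndufa4, cox6b1 and tcirg1a were higher in every mutant library than in any wild-type library. That of sdhda was lower, and those of cox8b and cox5b2 overlapped. As cox4i2, cox6a2, ndufa4, tcirg1a and sdhda were picked for passing the threshold, their lack of overlap is no further support. In ventricles cox6a2, cox8b and cox5b2 made up most of their families in both genotypes.

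One skeletal muscle marker, the muscle creatine kinase gene ckma, was at 1, 2 and 0 in wild-type fins and at 89, 52 and 14 in mutants, a log2 fold change of 4.51 (adjusted p = 0.00342). Of the 4 muscle markers listed, 2 were tested and ckma alone passed, and their sum was 19 to 42 in wild-type and 51 to 135 in mutant fins, with ckma at 0 in wild-type fin 3 and actn3b at 0 in wild-type fin 1. The cardiac troponin gene tnnt2a fell instead, from 61, 74 and 57 to 0, 6 and 5 (log2 fold change -4.22). Most of the difference in the sum came from ckma. The part of muscle tissue in the isoform differences was not tested.

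**Figure D3:**
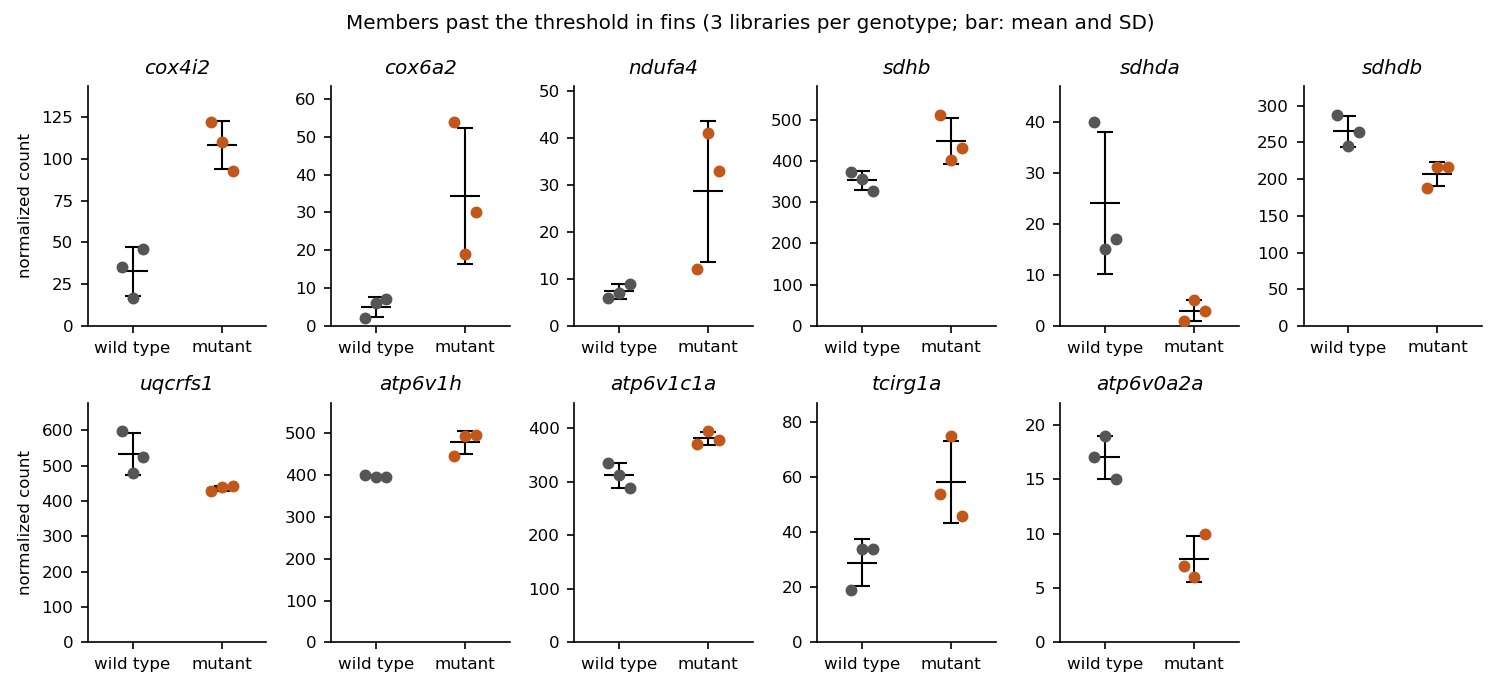
Normalised counts (y axis, from 0) of the 11 members past the threshold in fins, with 3 libraries per genotype as points and the mean and SD as bars. The groups did not overlap in any of the 11, nor in 52.8% of all genes tested in fins. As the 11 were picked for passing the threshold, their lack of overlap is no further support. The widest relative gaps are in cox4i2, cox6a2 and sdhda.

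Complex II, the succinate dehydrogenase, had 3 of its 5 genes past the threshold, in opposite directions. That is 60%, against 36.6% of all genes tested, in a class of only 5 genes. sdhda (chromosome 5, 30081241 to 30088077) is one of a pair of zebrafish genes for the membrane anchor subunit. It was at 40, 15 and 17 in wild-type fins and at 1, 5 and 3 in mutant fins, a log2 fold change of -2.65 ± 0.58 (adjusted p = 0.0101). It kept its call in the 5 leave-one-out fits in which it was tested, and fell below the minimum mean when wild-type fin 1 was left out.

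Its paralog sdhdb (chromosome 15, 21684435 to 21692630), the more abundant of the pair, fell less steeply. It was at 287, 245 and 264 in wild-type fins and at 188, 216 and 217 in mutants, with a log2 fold change of -0.36 ± 0.11 (adjusted p = 0.0337). sdhda made up 8.02% ± 3.65 of the pair in wild-type fins and 1.39% ± 0.87 in mutants.

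The iron-sulphur subunit gene sdhb (chromosome 22, 11395 to 18224) rose from 374, 356 and 328 to 510, 403 and 432, with a log2 fold change of 0.34 ± 0.11 (adjusted p = 0.0415). The flavoprotein subunit gene sdha was at 905, 797 and 808 in wild-type fins and 905, 812 and 847 in mutants. The other anchor gene sdhc was at 211, 169 and 183 and at 171, 170 and 180. Neither passed the threshold, so the 4 subunits did not move together.

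In complex III, 1 of 8 genes tested passed (12.5%, against 36.6% of all genes tested). uqcrfs1 (chromosome 7, 45400716 to 45406089), the gene for the Rieske iron-sulphur protein, fell from 598, 480 and 525 to 429, 439 and 442, with a log2 fold change of -0.28 ± 0.10 (adjusted p = 0.0498). The difference of 1.22-fold sat at the edge of the threshold. Fold changes of the other 7 tested ran from -0.25 in the hinge protein gene uqcrh to 0.00 in cyc1, which encodes cytochrome c1. uqcrb, at 8, 6 and 4 in wild-type fins and 1, 9 and 8 in mutants, was below the minimum mean.

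Few nuclear genes of complex I and the ATP synthase passed the threshold (2.86% and 0%, against 36.6% of all genes tested). Apart from ndufa4, none of the 35 complex I genes tested passed, with log2 fold changes from -0.30 (ndufab1b, the mitochondrial acyl carrier protein) to 0.17 (ndufa9a). The flavoprotein subunit gene ndufv1 was at 646, 593 and 611 in wild-type fins and at 678, 655 and 672 in mutants. The genotypes did not overlap there, but the adjusted p was 0.245. The 16 ATP synthase genes ran from -0.17 in atp5mc3a, which encodes subunit c of the membrane ring, to 0.23 in atp5mea. The smallest adjusted p among them was 0.219, and 15 of the 16 had intervals within 1.5-fold. atp5f1b, for the catalytic beta subunit, was at 1215, 943 and 1024 in wild-type fins and at 1143, 1019 and 1032 in mutants, a log2 fold change of 0.01 with a 95% interval from -0.24 to 0.26. Outside the complexes, the pyrophosphatase gene ppa1b was at 404, 359 and 362 in wild-type fins and 347, 337 and 346 in mutants (-0.12, adjusted p = 0.274).

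The fin libraries also differed within a genotype. Over complexes I to V, wild-type fin 1 was the highest of the 6 libraries in 53 of 84 genes and wild-type fin 2 the lowest in 43. Their median log2 deviations from the mean of the libraries were 0.14 and -0.11, and the mutant fins lay between at 0.05, -0.05 and 0.00. The normalised count that 1 read is worth, estimated from the steps in low values, was 1.13 in wild-type fin 1, 0.802 in wild-type fin 2 and 1.35, 0.929 and 0.905 in mutant fins 1 to 3. Mutant fin 1 and wild-type fin 1, in which a read was worth most, were the highest libraries in 20 and 53 of the 84 genes. Over all 16741 genes tested they were the highest in 4208 and 3282, a similar share for mutant fin 1 and a smaller one for wild-type fin 1. The part of the worth of a read in these values was not tested beyond the covariate fit. With this worth as a covariate, sdhb, sdhdb, atp6v1c1a and atp6v0a2a were no longer past the threshold, with adjusted p values of 0.05003, 0.0539, 0.0510 and 0.0775.

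**Figure D4:**
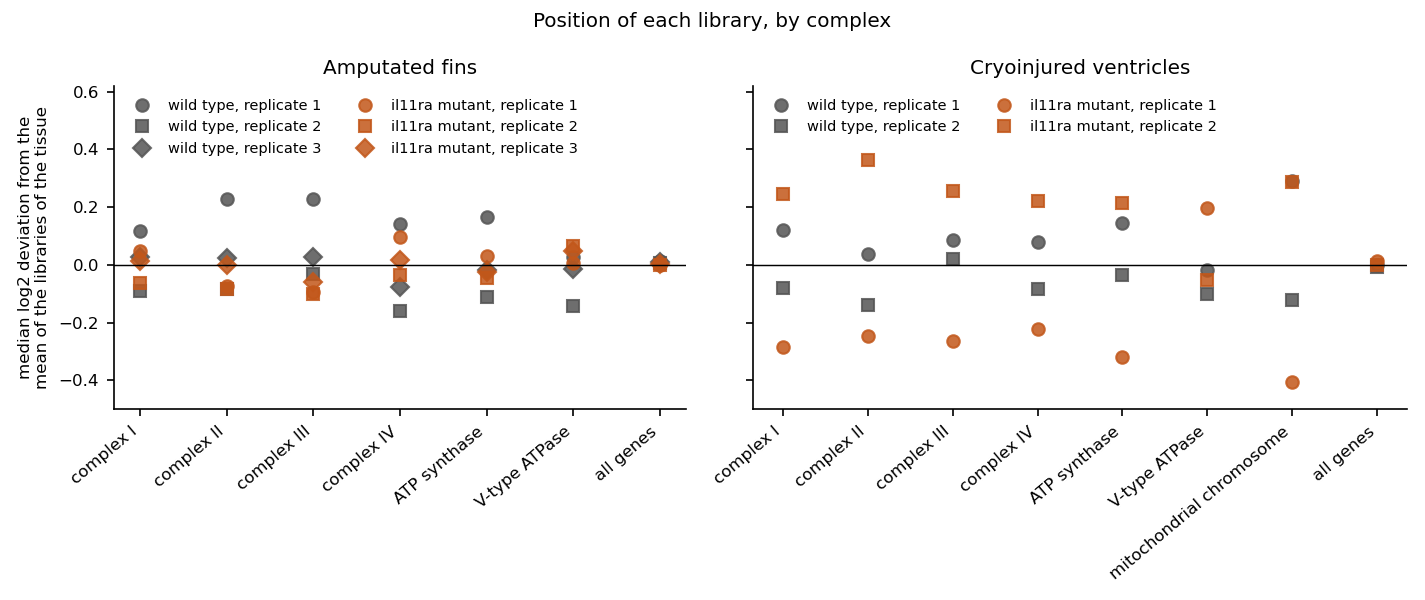
Median over the genes of each complex of the log2 deviation of a library from the mean of the libraries of its tissue (y axis), by complex (x axis), for fins on the left and ventricles on the right. Wild-type libraries are grey and mutant libraries orange, with a symbol for each replicate. In ventricles the 2 mutant libraries lie on either side of the wild-type libraries for complexes I to IV and the ATP synthase, at -0.28 and 0.24 over all of these genes, and the mutant library that is low there is high for the V-type ATPase.

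Most of these calls rested on all 6 libraries. sdhb, sdhdb, uqcrfs1, ndufa4, atp6v1h, atp6v1c1a and tcirg1a each passed in only 1 of the 6 fits that left out a library, and atp6v0a2a passed in none. Their directions did not change. The log2 fold changes in these fits were 0.24 to 0.41 for sdhb (highest adjusted p = 0.130), -0.41 to -0.29 for sdhdb (0.0938) and -0.36 to -0.20 for uqcrfs1 (0.116).

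Of 24 V-type ATPase genes tested in fins, 3 rose and 1 fell past the threshold. These are 12.5% and 4.17% of the genes tested, against 19.6% and 17.0% over all genes tested. The log2 fold change was positive in 18, with a median of 0.08, but the library medians overlapped between genotypes, and wild-type fin 2 was the lowest library in 11.

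atp6v1h (chromosome 2, 30786773 to 30846927), for the regulatory H subunit of the cytosolic V1 sector, was at 399, 396 and 395 in wild-type fins. In mutant fins it was at 445, 492 and 496, a log2 fold change of 0.27 ± 0.08 (adjusted p = 0.0342). atp6v1c1a (chromosome 16, 52748263 to 52767591), for the C subunit that links V1 to the membrane sector, was at 335, 313 and 288 in wild-type fins and at 371, 395 and 379 in mutants (0.29 ± 0.09, adjusted p = 0.0357). Both were rises of about 1.2-fold, larger than the spread within either genotype.

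tcirg1a and its paralog tcirg1b encode the a3 subunit, which mammalian osteoclasts use to acidify the bone surface. tcirg1a (chromosome 1, 44870880 to 44901163) was at 19, 34 and 34 in wild-type fins and at 54, 75 and 46 in mutants, with a log2 fold change of 1.0 ± 0.31 (adjusted p = 0.0353). tcirg1b was at 622, 585 and 640 and at 663, 786 and 659, without overlap but with an adjusted p of 0.153. The share of tcirg1a in the pair was 4.50% ± 1.35 in wild-type and 7.59% ± 1.09 in mutant fins.

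The 1 fall was in atp6v0a2a (chromosome 10, 7988746 to 8033468), for an a2 subunit of the membrane sector, at 17, 19 and 15 in wild-type fins and 7, 6 and 10 in mutants. Its log2 fold change was -1.08 ± 0.36 (adjusted p = 0.0473). The paralog atp6v0a2b was at 398, 321 and 353 and at 331, 331 and 290.

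Without single libraries the log2 fold changes stayed at 0.24 to 0.32 for atp6v1h, 0.24 to 0.34 for atp6v1c1a, 0.73 to 1.15 for tcirg1a and -1.26 to -0.93 for atp6v0a2a. The highest adjusted p in these fits was 0.115, 0.120, 0.0988 and 0.129.

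Of 108 lysosome genes tested outside the pump, 42 rose (38.9%, against 19.6% over all genes tested) and 9 fell (8.33%, against 17.0%), with a median log2 fold change of 0.25. Markers of cells rich in V-type ATPase were mixed. Macrophage markers summed to 1273 to 1578 in wild-type and 2237 to 2326 in mutant fins, with 6 of 8 tested higher (75%, against 19.6% over all genes tested). Osteoclast markers summed to 732 to 1003 and 1026 to 1175, with 1 of 4 higher (25%), the tartrate-resistant phosphatase gene acp5b at 17, 8 and 12 against 66, 81 and 66, which also stands in the lysosome list. Ionocyte markers summed to 1615 to 1936 and 1831 to 2512, with 3 of 7 higher (42.9%), and their groups overlapped. None of the markers of these 3 cell types was at 0 in any library. Neutrophil markers summed to 600 to 1009 and 1784 to 2320, with 2 higher and 1 lower of 5 tested. Their part in the V-type ATPase differences was not tested.

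The genes that build the complexes were examined alongside the subunits. Of 49 assembly factors outside the 115 genes, 11 fell and 2 rose (22.4% and 4.08%, against 17.0% and 19.6% over all genes tested). The median log2 fold change was -0.24. foxred1, a complex I assembly factor, fell furthest, from 182, 180 and 163 in wild-type fins to 42, 73 and 68 in mutants, a log2 fold change of -1.54 ± 0.21 (adjusted p = 0.00192).

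Others that fell act on complex I (tmem186, ndufaf4, ndufaf7 and ecsit), complex II (sdhaf3), complex III (bcs1l and lyrm7), complex IV (cox18 and cmc1) and the F1 part of the ATP synthase (atpaf1). Their log2 fold changes ran from -0.94 in tmem186 to -0.35 in atpaf1. bcs1l, the AAA protein that inserts the Rieske protein into complex III, was at 146, 173 and 162 in wild-type fins and at 89, 111 and 101 in mutants (-0.67 ± 0.14, adjusted p = 0.00794). Both bcs1l and its substrate gene uqcrfs1 were lower in every mutant fin than in any wild-type fin, as were 26.8% of all genes tested. bcs1l was chosen after its values were seen, and a link between them was not tested.

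The 2 that rose were sdhaf1, which helps the iron-sulphur subunit of complex II mature, and nubpl, which delivers iron-sulphur clusters to complex I. sdhaf1 was at 27, 34 and 30 in wild-type fins and at 71, 70 and 55 in mutants (1.08 ± 0.21, adjusted p = 0.0069). nubpl was at 69, 77 and 81 and at 126, 100 and 100 (0.51 ± 0.16, adjusted p = 0.0373). Without single libraries 3 to 8 of the factors were called lower, the fewest without wild-type fin 2, and with the worth of a read as a covariate the count was 6. foxred1, ndufaf7, bcs1l and sdhaf1 passed in all 6 fits that left out a library.

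Among 15 regulators of mitochondrial biogenesis tested, 4 fell (26.7%, against 17.0% over all genes tested) and 1 rose (6.67%, against 19.6%). polg, the mitochondrial DNA polymerase gene, fell from 156, 196 and 165 to 82, 110 and 93 (-0.86 ± 0.16, adjusted p = 0.00517). pprc1, a coactivator of nuclear genes for mitochondrial proteins, fell from 543, 622 and 575 to 312, 384 and 406 (-0.66 ± 0.12, adjusted p = 0.00437).

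esrra, an orphan receptor that drives respiratory genes, was at 87, 106 and 91 against 65, 62 and 60 (-0.59, adjusted p = 0.0207). tfam, which packages mitochondrial DNA, was at 204, 191 and 205 against 133, 158 and 156 (-0.43, adjusted p = 0.0215). The coactivator gene ppargc1b rose from 229, 288 and 214 to 378, 339 and 353 (0.56, adjusted p = 0.0112). Leaving out wild-type fin 3 reduced the 4 falls to 2, with esrra and tfam no longer past the threshold.

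Of 13 carriers of ATP, phosphate and electrons tested, 3 passed the threshold (23.1%, against 36.6% of all genes tested). The uncoupling protein gene ucp3 was at 3, 5 and 13 in wild-type fins and at 200, 112 and 129 in mutants, a log2 fold change of 4.37 ± 0.47 (adjusted p = 7.81e-04). ucp2 rose from 599, 397 and 498 to 1092, 715 and 879 (0.84 ± 0.19, adjusted p = 0.0107).

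The mitochondrial creatine kinase gene ckmt1, whose product moves phosphate energy from ATP to creatine, fell from 95, 97 and 106 to 39, 46 and 46 (-1.17 ± 0.17, adjusted p = 0.00201). In the tricarboxylic acid cycle outside complex II, 3 genes rose (12.5%, against 19.6% over all genes tested) and 2 fell (8.33%, against 17.0%) of 24 tested. Log2 fold changes over these 24 ran from -0.51 to 3.21, so the largest difference was a rise. Among the falls, idh3g, a subunit of the NAD-dependent isocitrate dehydrogenase, went from 547, 449 and 500 to 385, 411 and 392 (-0.33, adjusted p = 0.029).

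**Figure D5:**
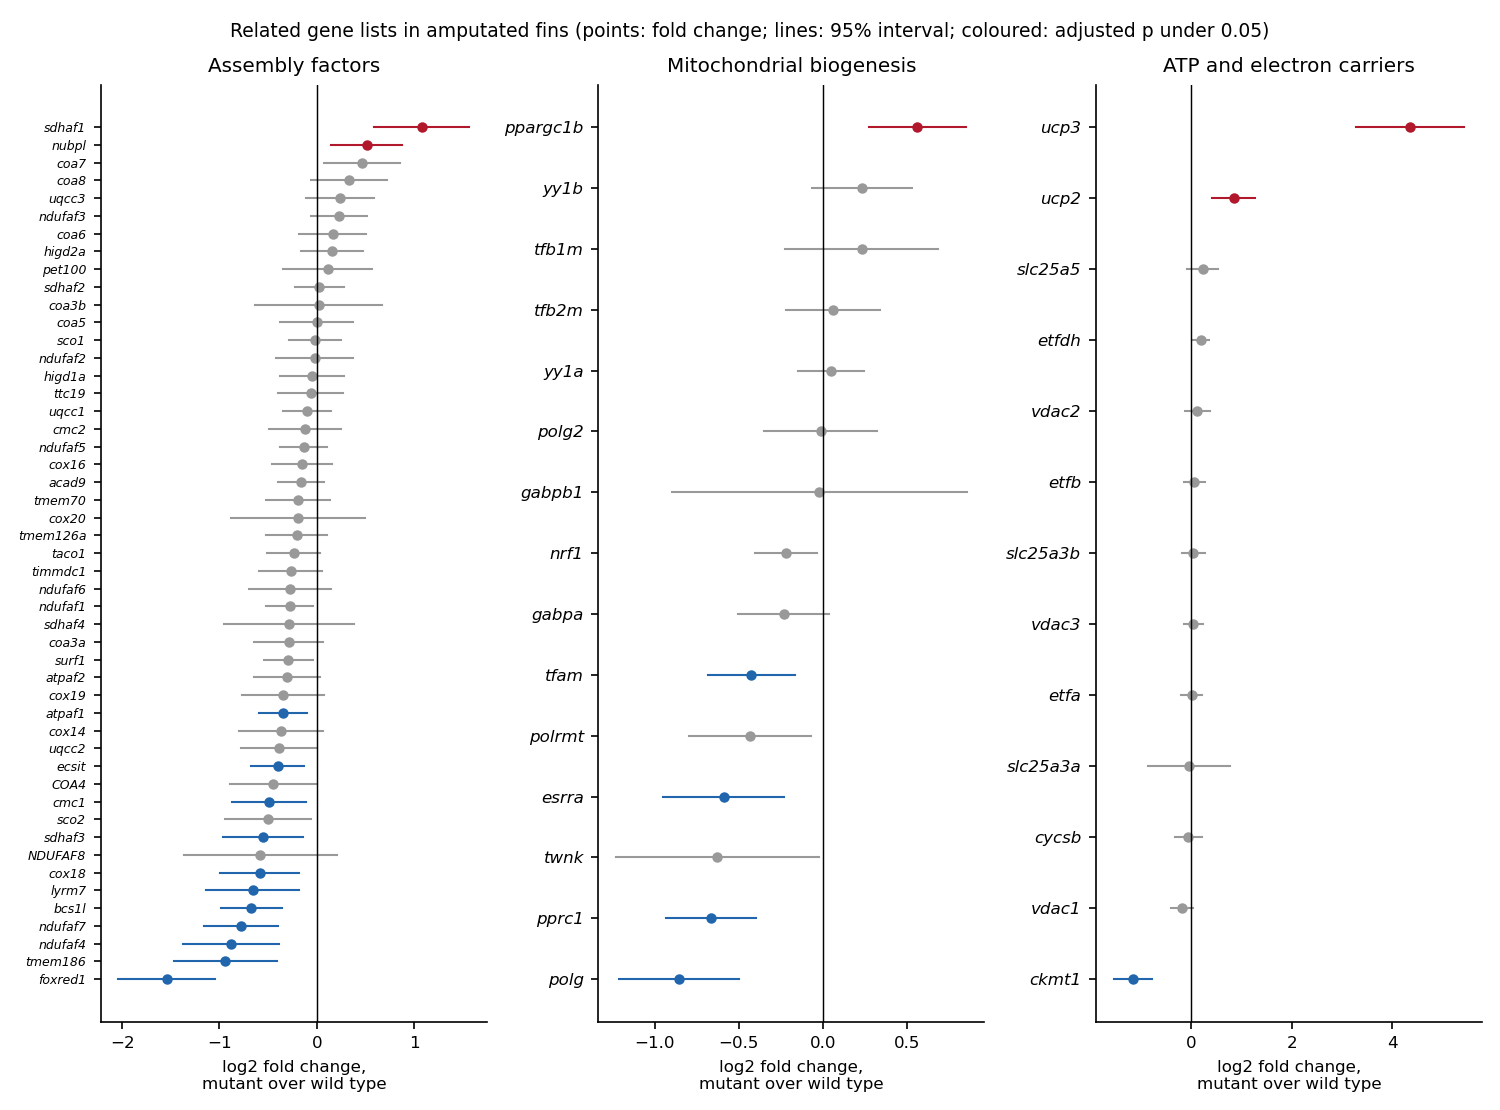
Log2 fold change in fins (x axis, mutant over wild type) with its 95% interval for each gene tested (y axis) of 3 lists related to oxidative phosphorylation. Red and blue genes passed an adjusted p of 0.05. Of 49 assembly factors 11 were lower and 2 higher, of 15 biogenesis genes 4 were lower and 1 higher, and of 13 carriers ckmt1 was lower and ucp2 and ucp3 higher.

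In ventricles at 96 hpci, no oxidative phosphorylation gene passed the threshold. The count was 0 of 113 tested, as it was over the whole table (0.0% of 17411 genes by limma, with 6.74% at an unadjusted p under 0.05). At an unadjusted p under 0.05 there were 2 members, COX5B and cox6c, or 1.77% of those tested. The genotypes did not overlap in 13 of 113 members (11.5%), against 35.3% of all genes tested. With 2 libraries per genotype the median standard error was 0.24, and the 95% interval lay within 1.5-fold for 10 of the 87 genes of complexes I to V (11.5%, against 13.1% of all genes tested). For the others the interval reached past 1.5-fold.

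The ventricle libraries differed more within the mutant group than between genotypes. Mutant ventricle 1 was the lowest of the 4 libraries in 67 of 87 genes of complexes I to V, and mutant ventricle 2 the highest in 55. The wild-type libraries lay between, with median log2 deviations of 0.09 and -0.06 against -0.28 and 0.24 for the mutants. Of the 16 ATP synthase genes, mutant ventricle 1 was the lowest in 15 and mutant ventricle 2 the highest in 8.

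atp5f1b was at 42699 and 35957 in wild-type ventricles and at 29732 and 48411 in mutants, and sdha at 7542 and 6343 and at 5745 and 9365. The mitochondrially encoded genes, which are not among the 115, were also lowest in mutant ventricle 1, in 18 of 23 tested. Their median log2 deviation was -0.41 there, against 0.29 in mutant ventricle 2 and 0.29 and -0.12 in wild type, so mutant ventricle 2 did not stand above both wild-type libraries.

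The median log2 fold change over complexes I to V was -0.04. It was 0.23 without mutant ventricle 1, -0.28 without mutant ventricle 2 and 0.04 when libraries were scaled to equal sums, so no direction could be given. Cardiomyocyte markers were also lowest in mutant ventricle 1, in all 10 listed genes, with a sum of 480790 there, against 857823 in mutant ventricle 2 and 908700 and 784916 in wild type. None of the 10 was at 0. Fibroblast markers summed to 58525 and 60666 in mutants and to 36149 and 41866 in wild type. The part of the tissue's makeup in these values was not tested.

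For the V-type ATPase, mutant ventricle 1 was instead the highest library in 15 of 23 genes tested, with a median log2 deviation of 0.20 against -0.05 in mutant ventricle 2 and -0.02 and -0.10 in wild type. Summed macrophage markers were also highest there, at 13804 against 8835 to 11312 in the other libraries. Of the 17 markers tested, however, 12 had a negative log2 fold change. In 7 both mutant libraries lay below both wild-type libraries, and in 1 they lay above. Over all genes tested these shares were 17.1% and 18.2%. The part of these markers in the V-type ATPase values was not tested. For the V-type ATPase the median log2 fold change was 0.12, or 0.02 without mutant ventricle 1 and 0.29 without mutant ventricle 2.

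The members with the smallest p values were in complex IV. COX5B, one of the genes for the zinc-binding subunit 5b, was at 1316 and 1111 in wild-type ventricles and at 1886 and 1615 in mutants. The log2 fold change was 0.53 ± 0.19 (adjusted p = 0.702). Its paralog cox5b2 was at 4126 and 3602 in wild-type libraries and 3238 and 5476 in mutants.

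cox6c was at 3368 and 2675 in wild type and at 1712 and 2252 in mutants (-0.61 ± 0.23, adjusted p = 0.708). Both differences ran in the same direction in each mutant library although the mutant libraries stood apart for the complex as a whole. As COX5B and cox6c were picked for their small p values, this shared direction is no further support. Neither survived adjustment over all genes.

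In complex III, uqcrq was at 1750 and 1636 in wild-type libraries and 1100 and 1443 in mutants (-0.43 ± 0.21, adjusted p = 0.782), and uqcrb at 79 and 79 and at 32 and 74 (-0.69 ± 0.42). The complex I accessory gene ndufa7 was at 622 and 647 and at 380 and 596 (-0.41 ± 0.25). For uqcrb and ndufa7 the size rested on mutant ventricle 1, without which the log2 fold changes were -0.09 and -0.09.

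The normalised counts of 3 isoforms that rose in fins overlapped between genotypes in ventricles. cox6a2 was at 8567 and 7057 in wild-type libraries and 5464 and 9439 in mutants, cox4i2 at 175 and 192 and at 121 and 181, and ndufa4 at 5451 and 5381 and at 5449 and 6473. As a share of its family, cox4i2 was at 1.05% and 1.33% in wild-type ventricles and at 0.935% and 0.979% in mutants. The mutant shares were lower, the reverse of the direction in fins. In ventricles the shares of cox4i1l, of the same family, and of cox6b1 did not overlap either, and were higher in mutants. For each of these shares the exact two-sided permutation p was 0.333, the smallest possible with 2 against 2. A difference in these genes between the tissues was not tested, since the tables were scaled separately.

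In 4 members the genotypes did not overlap in either tissue, where 52.8% of all genes tested in fins and 35.3% of those in ventricles did not overlap. These are shares of each tissue alone. The share of all genes without overlap in both was not computed, so the 4 members are not set apart from it. sdhda was lower in mutants in both, at 26 and 35 in wild-type and 25 and 18 in mutant ventricles (-0.49 ± 0.37, adjusted p = 0.871). atp6v1h was higher in both, at 663 and 653 in wild-type and 814 and 717 in mutant ventricles. atp6v1d, for the D subunit of the V-type ATPase rotor, was also higher in both.

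In fins atp6v1d was at 461, 416 and 453 in wild-type animals and 486, 484 and 470 in mutants, and in ventricles at 688 and 695 and at 894 and 793 (0.28 ± 0.17, adjusted p = 0.825). The fourth, ndufab1b, took opposite directions. None of the 4 passed the threshold in ventricles, and sdhda and atp6v1h passed in fins.

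In ventricles 0 of 47 assembly factors and 0 of 18 biogenesis genes tested passed the threshold, as did 0 of all 17411 genes tested. As no gene of the ventricle table could be called, these counts cannot tell whether the assembly and biogenesis genes that fell in fins differed between the tissues. The genotypes did not overlap in 15 of the 47 assembly factors (31.9%, against 35.3% of all genes tested). Of these, 12 were lower and 3 higher in mutants, where 17.1% of all genes tested were lower and 18.2% higher. Among the biogenesis genes there was no overlap in 2 of 18 (11.1%), 1 in each direction. foxred1 was at 67 and 45 in wild-type and 52 and 70 in mutant ventricles. polg was at 86 and 65 and at 84 and 67. ucp3 was at 400 and 272 in wild-type and 155 and 301 in mutant ventricles, with overlap.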

How the data were processed

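RNA-seq was analysed from 1 deposited table per tissue. Each deposited value is a signal, the read count of a gene that the authors scaled by library within a tissue and rounded to a whole number, so no count model was fitted. The submitters' processing notes name FastQC, Trimmomatic 0.39, STAR 2.7.3a, featureCounts 1.6.5 and DESeq2 1.26, with GRCz11, and library preparation kept strand. Groups and replicate numbers were read from the labels, and members from the KEGG column of the tables. Members and gene lists were chosen with earlier results of these data known.

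Genes with a mean of at least 10 were tested in each tissue on log2(value + 1) with limma 3.58.1 (R 4.3.3; empirical Bayes with a mean-variance trend; two-sided), adjusted by Benjamini-Hochberg over all genes tested, at a threshold of 0.05. The fit was tested on simulated data. A fold change on this scale understates the change of low genes. A gene low in 1 genotype could reach the minimum mean through the other genotype alone. In fins this held for cox6a2, ndufa4, ucp3 and ckma through the mutants, and for sdhda, atp6v0a2a and tnnt2a through the wild type. The worth of 1 read in a library was estimated from gaps between low values, and in simulations 17 of 20 estimates were within 1 percent, while the other 3, all with a true worth close to 1, came out too low. Tables were handled in Python 3.11.15.

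Named genes were, per class, up to 3 called members with the largest rise and fall, or the 2 largest differences without overlap where none was called, together with il11ra, complex II, isoform pairs and biogenesis regulators. Others, including the assembly factors, carriers and markers, were chosen after their values were seen. Alternatives were 2 scalings, other filters, pseudocounts of 0.1 and 10, other moderation, a replicate block and leaving out each library. Fin libraries came from separate animals and ventricle libraries from separate pools.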

Additional observations from a re-analysis of the deposited data

Results flagged for a closer look

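For 5 genes the genotypes did not overlap in either tissue and the direction was opposite. The difference between tissues was not tested for any of them, and none passed the threshold in ventricles. Over all genes tested, the genotypes did not overlap in 52.8% in fins and 35.3% in ventricles. The share of all genes without overlap in both and with opposite directions was not computed, so these 5 are not set apart from it.

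ndufab1b was at 231, 189 and 194 in wild-type fins and 153, 171 and 173 in mutants (log2 fold change -0.30, not past the threshold), but at 988 and 909 in wild-type and 998 and 1274 in mutant ventricles (0.25). The assembly factor ndufaf4 fell in fins (-0.88) and was at 75 and 64 in wild-type and 78 and 78 in mutant ventricles (0.17). nubpl rose in fins (0.51) and was at 87 and 89 in wild-type and 72 and 76 in mutant ventricles (-0.25). The mitochondrial creatine kinase gene ckmt1 fell in fins (-1.17) and was at 15 and 12 in wild-type and 17 and 33 in mutant ventricles (0.78). ucp2 rose in fins (0.84) and was at 1403 and 1602 in wild-type and 1161 and 643 in mutant ventricles (-0.79).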

How the results depend on the processing

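In fins, the 4 rises in complexes I to V became 2 at a minimum mean of 50 and 2 to 3 without single libraries. The 3 falls became 1 without a variance trend, with the replicate block or at a fold of at least 1.5, and 0 to 3 without single libraries. The 3 V-type ATPase rises became 1 without a trend, with the block, with upper-quartile scaling or at a fold of at least 1.5, and 0 to 1 without single libraries. The 1 V-type ATPase fall became 0 at a minimum mean of 50, with no filter, with a pseudocount of 0.1, with the block, with the worth of a read as a covariate and without any single library. The covariate was chosen after seeing the data. No direction reversed among the called genes under the alternatives run.

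In ventricles every count stayed at 0, and in fits without a library the lone sample of its group is assumed to vary like the other group. Fin replicate numbers did not pair the samples (correlations of deviations 0.0328, 0.0898 and -0.0842), and the block gave 5703 calls over all fin genes against 6132. The lowest such count was 4180, without wild-type fin 2. In ventricles the same-number correlation was -0.194, and crossing the pairing, chosen after seeing the data, gave 0 calls. With 2 or 3 libraries per genotype, small differences in genes at low counts could not be resolved.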
